A study of Mus musculus with 9 samples.

Results

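Hepatic complement and coagulation factors were described here as 33 genes of plasma proteins made by the liver, chosen by name. The 33 comprised 13 complement genes, 13 clotting factor genes and 7 genes of coagulation inhibitors and fibrinolysis, out of 16722 genes tested. All 33 had a probe past the filter on dim probes. RNA came from a liver lobe of male C57BL/6 mice aged 3 months, measured on 9 single-colour Agilent arrays. The 3 groups, of 3 arrays each, were untreated wild-type liver, liver given a GFP vector built on adeno-associated virus (AAV-GFP, where GFP is green fluorescent protein), and liver given the same kind of vector with human glucocorticoid receptor β (AAV-hGRβ). hGRβ is a splice form of the human glucocorticoid receptor with its own carboxy terminus that does not bind classical glucocorticoids. The AAV-GFP group served as the vector control, and the untreated group received neither agent. The promoter of either vector, its dose and the time between treatment and sampling are not given in the sources used here, and expression of the transgenes was not analysed here. Nothing in the labels says that replicates were separate animals, so p-values measure the spread between these samples, which may be technical.

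Complement is a cascade of plasma proteases and binding proteins. Mannose-binding lectins and their proteases Masp1 and Masp2 start its lectin pathway, C3 is cleaved at the point where its pathways meet, and C6, C8 and C9 build the membrane attack complex. Coagulation runs from factor VII and the contact factors through factor X and prothrombin to fibrin, and is held back by antithrombin and protein C, while plasmin dissolves the clot. Hepatocytes are the main source of nearly all these proteins, and in textbook accounts glucocorticoids act with cytokines on several of their genes, the fibrinogen genes among them.

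Promoter sequences are shown for a gene pair and a gene trio whose values are set side by side below, the mannose-binding lectins and the fibrinogen chains. Each is the 250 bases before the gene's start in RefSeq on GRCm38.p6, read 5′ to 3′ on the strand of the gene. The window of Mbl1 lies at chr14:41151206-41151455 and that of Mbl2 at chr19:30232678-30232927, both on the plus strand. Capitals mark a stretch of 39 bases, 34 of them the same in both genes, at positions -45 to -7 in Mbl1 and -79 to -41 in Mbl2 counted from the start, a stretch found after the sequences were read.
Mbl1: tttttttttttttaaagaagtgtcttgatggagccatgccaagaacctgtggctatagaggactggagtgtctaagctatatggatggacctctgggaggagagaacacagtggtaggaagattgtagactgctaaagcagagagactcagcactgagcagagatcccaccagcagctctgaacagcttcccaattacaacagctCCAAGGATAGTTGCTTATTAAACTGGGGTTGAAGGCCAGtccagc
Mbl2: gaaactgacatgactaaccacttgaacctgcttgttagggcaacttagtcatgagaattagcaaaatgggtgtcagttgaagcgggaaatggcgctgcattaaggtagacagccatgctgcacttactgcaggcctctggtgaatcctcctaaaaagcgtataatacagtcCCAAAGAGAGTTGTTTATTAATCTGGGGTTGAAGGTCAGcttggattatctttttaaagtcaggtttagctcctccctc
The fibrinogen genes are neighbours on chromosome 3. The window of Fga lies at chr3:83025903-83026152 and Fgg at chr3:83007474-83007723 on the plus strand, and Fgb at chr3:83049864-83050113 on the minus strand. Capitals mark matches to motifs searched by letters, which were TTGCNNAA (C/EBP), TTCNNNGAA (STAT) and AGAACA or TGTTCT (the hexamer of the glucocorticoid receptor).
Fga: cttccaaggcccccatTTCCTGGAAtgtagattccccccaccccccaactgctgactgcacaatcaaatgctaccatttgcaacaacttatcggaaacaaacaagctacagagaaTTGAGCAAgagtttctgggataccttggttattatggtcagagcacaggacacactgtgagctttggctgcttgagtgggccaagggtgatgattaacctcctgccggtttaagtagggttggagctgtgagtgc
Fgb: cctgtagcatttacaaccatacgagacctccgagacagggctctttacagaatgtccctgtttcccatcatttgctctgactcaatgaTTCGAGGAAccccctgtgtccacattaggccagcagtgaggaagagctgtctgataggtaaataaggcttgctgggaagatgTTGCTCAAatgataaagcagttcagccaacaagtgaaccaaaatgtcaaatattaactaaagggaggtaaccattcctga
Fgg: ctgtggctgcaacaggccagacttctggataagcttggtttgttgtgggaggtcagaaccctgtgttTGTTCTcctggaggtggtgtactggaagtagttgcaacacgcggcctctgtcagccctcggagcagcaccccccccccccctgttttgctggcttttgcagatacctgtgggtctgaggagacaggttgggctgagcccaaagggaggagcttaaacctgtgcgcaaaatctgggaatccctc
Fga and Fgb each held the C/EBP and STAT letters, in Fga at positions -135 and -234 and in Fgb at -80 and -162. Fgg held neither and had 1 match to the receptor hexamer, at -183.

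The arrays differed in brightness. The share of gene spots well above background ran from 54.0% to 82.0%, with the highest share on AAV-hGRβ replicate 1. The 75th percentile of intensity, to which each array was scaled, ran from 322 to 605. Levels below are log2 units relative to that percentile, so that 0 is the percentile itself, and differences are on the same log2 scale. Scanning took 2 days, and each day held arrays of all 3 groups. The second day held untreated replicate 2, AAV-GFP replicate 3 and AAV-hGRβ replicate 1. The arrays lay on 5 slides. AAV-GFP replicate 3 and AAV-hGRβ replicate 1 shared a slide, and every other slide held arrays of a single group. Slide and group can therefore largely not be told apart, and the main fit does not model slide. Of 16 hepatocyte markers, 15 were tested and all 15 were measured on every array of each group. Their summed level (log2) ran from 12.21 to 12.73 in untreated liver, 12.44 to 12.90 with AAV-GFP and 12.23 to 12.58 with AAV-hGRβ.

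No member passed the test in any of the 3 comparisons. With AAV-hGRβ against AAV-GFP, 30 of the 33 members had a lower mean and 3 a higher one (Mbl2, F9 and Cpb2), with a median log2 difference of -0.22. In limma's moderated test with Benjamini-Hochberg adjustment at 0.05, 0 of 33 members were called, beside 0.915% of all genes tested. The lowest adjusted p among members was 0.330, for F7. At an unadjusted p under 0.05 the fit gave 6 members, 1 higher (Mbl2) and 5 lower (C8a, F7, Klkb1, Serpinf2 and Plg), which is 18.2% of members beside 11.6% of all genes.

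Complete separation of the AAV-hGRβ arrays from the AAV-GFP arrays was seen upward for Mbl2 alone, where 9.36% of all genes separated in that direction. Downward separation was seen for 9 members, beside 6.31% of all genes. These were C8a, C9, F5, F7, F10, Kng1, Serpinf2, Proc and Plg. Standard errors of the members' differences ran from 0.16 to 0.36, and no member had an adjusted p under 0.05 (limma).

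**Figure D1:**
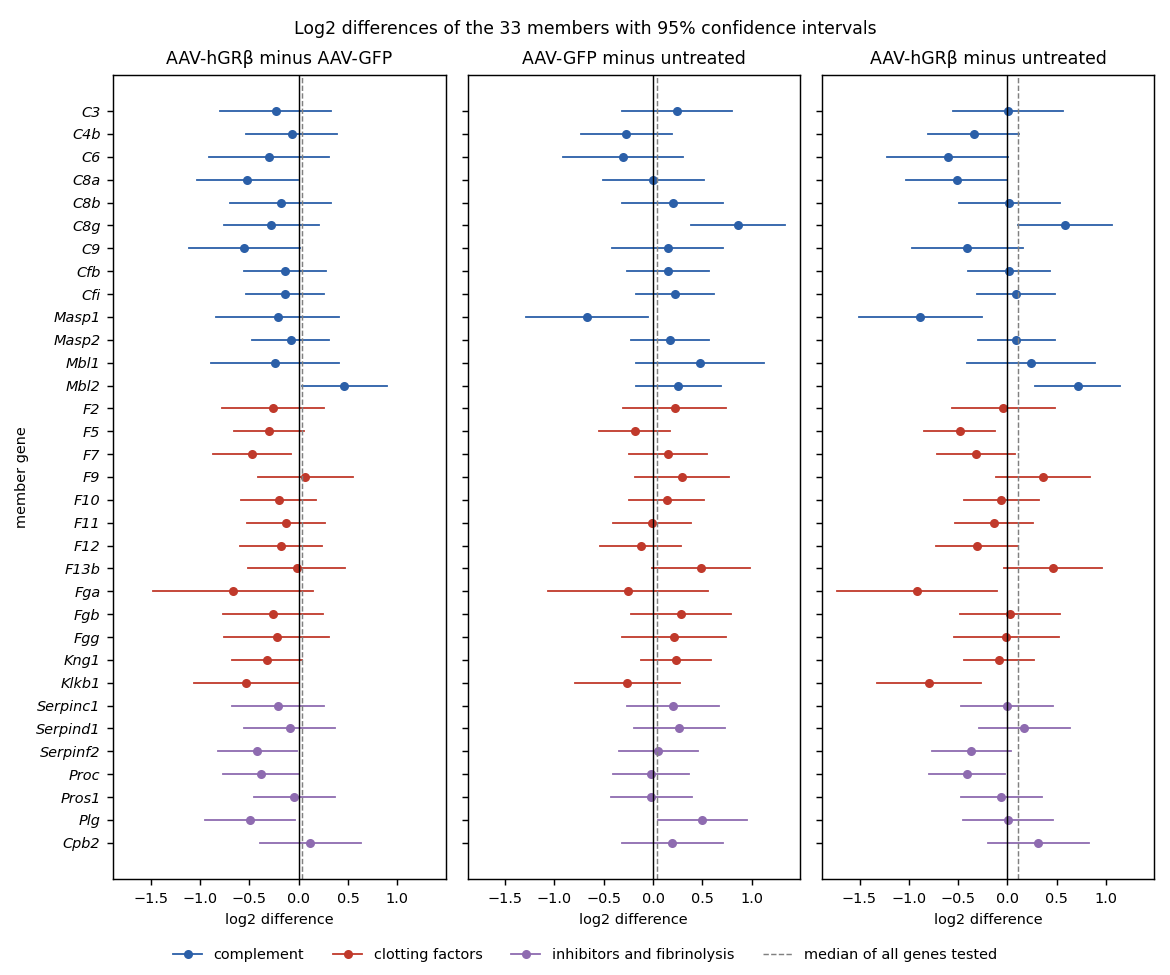
Log2 difference of each of the 33 members (horizontal axis) with its 95% confidence interval from the limma fit, in 3 comparisons; colours mark the 3 roles and the dashed line is the median of all genes tested. In the comparison of AAV-hGRβ with AAV-GFP, 30 of 33 points lie left of 0 and Mbl2 is the rightmost.

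Among the recognition molecules of the lectin pathway, Mbl2 (mannose-binding lectin C) had the lowest adjusted p of all members with AAV-hGRβ against untreated liver. Its levels were 8.40, 7.89 and 7.95 in untreated replicates 2, 3 and 4, 8.24, 8.44 and 8.32 with AAV-GFP, and 8.94, 8.59 and 8.85 with AAV-hGRβ. All 3 AAV-hGRβ arrays were above all other arrays. The difference was 0.46 ± 0.19 (SE; adjusted p = 0.388, limma) from AAV-GFP and 0.71 ± 0.19 (adjusted p = 0.0744) from untreated liver, a 1.64-fold higher mean that missed the threshold. With scan day as a block the latter adjusted p was 0.0495 (limma), on the other side of the threshold. Within scan days the difference from AAV-GFP was 0.38 on day 1 and 0.61 on day 2, and that from untreated liver was 0.80 and 0.54. Its probe lies at chr19:29938699-29938758 on mm7, the build of the array files, for which no gene annotation was used here.

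Mbl1 (mannose-binding lectin A), whose promoter shares the stretch shown above, did not separate. Its levels were 6.02, 5.05 and 5.01 in untreated liver, 5.70, 5.76 and 6.05 with AAV-GFP, and 5.40, 5.86 and 5.54 with AAV-hGRβ. The 3 groups overlapped, with differences of -0.24 ± 0.29 (SE) from AAV-GFP and 0.24 ± 0.29 from untreated liver. Whether Mbl1 and Mbl2 differed from each other in response was not tested.

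Masp1 and Masp2 encode the proteases that ride on these lectins. The probe standing for Masp1 read 3.82, 4.51 and 4.65 in untreated liver, 3.92, 3.71 and 3.34 with AAV-GFP, and 3.77, 3.40 and 3.16 with AAV-hGRβ. AAV-hGRβ arrays were all below untreated arrays, by -0.88 ± 0.27 (SE; adjusted p = 0.104, limma). Other probes of Masp1 did not share this: the probe with the median difference gave 0.01, and the 3 probes past the filter ranged from -0.88 to 0.05. The 3 probes of Masp2 lay between 0.08 and 0.09 in the same comparison, at levels of 5.93 to 6.37 over all 9 arrays on the brightest of them.

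C3, the central component, gave levels of 10.04, 9.49 and 9.47 in untreated liver, 9.64, 9.77 and 10.31 with AAV-GFP, and 9.68, 9.89 and 9.44 with AAV-hGRβ. The groups overlapped, and the difference between AAV-hGRβ and AAV-GFP was -0.23 ± 0.25 (SE). A dimmer probe of C3 gave -0.50 in that comparison. Cfb and Cfi, a subunit and an inhibitor of the C3-cleaving enzyme, both differed by -0.14 from AAV-GFP. C4b differed by -0.07, and its probe may also bind the near-identical C4a, which leaves its identity uncertain.

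Of the membrane attack genes, C9 and C8a had the most negative differences between AAV-hGRβ and AAV-GFP. C9 read 3.54, 3.29 and 3.72 in untreated liver, 4.19, 3.42 and 3.38 with AAV-GFP, and 2.89, 3.23 and 3.21 with AAV-hGRβ. Its 3 AAV-hGRβ arrays were below the other 6, and its difference from AAV-GFP was -0.55 ± 0.25 (SE; adjusted p = 0.442, limma). Without AAV-GFP replicate 1, the highest array, that difference was -0.29. C8a, the subunit of C8 that inserts into membranes, read 6.70, 6.25 and 6.59 in untreated liver, 6.42, 6.38 and 6.75 with AAV-GFP, and 6.06, 6.31 and 5.62 with AAV-hGRβ, a difference of -0.52 ± 0.23 (adjusted p = 0.424) from AAV-GFP.

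C8g, the lipocalin-like subunit of C8, is given on every array, as Mbl1 is, because of values already seen and outside the rule for named members. Its levels were 7.24, 6.98 and 7.002 in untreated liver, 7.64, 7.93 and 8.23 with AAV-GFP, and 7.53, 7.95 and 7.49 with AAV-hGRβ. Both vector groups lay above all untreated arrays, by 0.86 ± 0.21 (SE; adjusted p = 0.490, limma) and 0.58 ± 0.21 (adjusted p = 0.140). C8b differed by 0.20 and 0.02 in the same comparisons. C6, an earlier subunit of the same complex, read 4.00, 4.51 and 4.58 in untreated liver, 4.47, 4.05 and 3.65 with AAV-GFP and 3.97, 3.90 and 3.41 with AAV-hGRβ, with a difference of -0.61 ± 0.27 from untreated liver (adjusted p = 0.196).

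**Figure D2:**
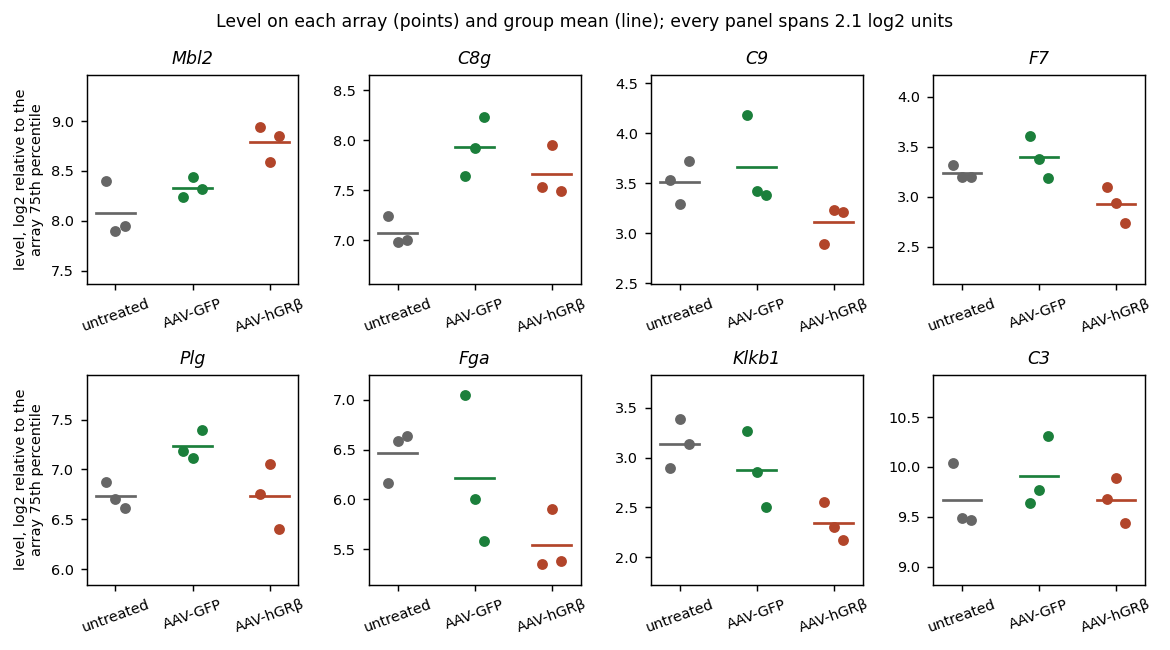
Level of 8 members (vertical axis, log2 relative to the array 75th percentile) on each of the 3 arrays of each group (points), with group means as lines; every panel spans the same number of log2 units. Mbl2 on AAV-hGRβ arrays (8.59 to 8.94) lies above all other arrays and C9 (2.89 to 3.23) below them, while C3 overlaps between groups.

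Values of the 3 chains of fibrinogen, the substrate of thrombin, are set side by side. Fga (α chain) read 6.17, 6.59 and 6.63 in untreated liver, 7.04, 6.00 and 5.58 with AAV-GFP, and 5.35, 5.90 and 5.38 with AAV-hGRβ. AAV-hGRβ arrays were all below untreated arrays (-0.92 ± 0.36, SE; adjusted p = 0.158, limma), and AAV-GFP replicate 1 was the highest of all 9 arrays. Against AAV-GFP the difference was -0.66 ± 0.36, and -0.25 without that array. Fgb (β chain) read 9.89, 9.29 and 9.40 in untreated liver, 9.71, 9.69 and 10.03 with AAV-GFP, and 9.43, 9.86 and 9.37 with AAV-hGRβ, with differences of -0.26 ± 0.22 from AAV-GFP and 0.03 ± 0.22 from untreated liver. Fgg (γ chain) differed by -0.22 and -0.01 in these comparisons. The interval of the Fga difference from untreated liver, -1.73 to -0.11, overlaps those of Fgb (-0.48 to 0.54) and Fgg (-0.54 to 0.52), and the difference between chains was not tested.

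F7, the partner of tissue factor that starts coagulation, had the lowest adjusted p against AAV-GFP. It read 3.32, 3.20 and 3.19 in untreated liver, 3.61, 3.38 and 3.19 with AAV-GFP, and 3.09, 2.94 and 2.73 with AAV-hGRβ. All AAV-hGRβ arrays were below the other 6, by -0.47 ± 0.17 (SE; adjusted p = 0.330, limma) from AAV-GFP. Its vitamin K-dependent relatives lay closer to 0, Proc (described below) least so at -0.38 ± 0.17 (SE) from AAV-GFP. F2 (prothrombin) read 9.66, 9.08 and 8.96 in untreated liver, 9.23, 9.42 and 9.70 with AAV-GFP, and 9.13, 9.40 and 9.04 with AAV-hGRβ, and its groups overlapped (-0.26 ± 0.23 from AAV-GFP). F10 differed by -0.20 and F9 by 0.07 from AAV-GFP.

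F5, the cofactor of activated factor X, varied little within groups. Its levels were 3.95, 3.94 and 4.00 in untreated liver, 3.81, 3.91 and 3.62 with AAV-GFP, and 3.57, 3.57 and 3.30 with AAV-hGRβ. The 3 groups did not overlap, in the order untreated, AAV-GFP and AAV-hGRβ from high to low, and AAV-hGRβ differed from untreated liver by -0.49 ± 0.16 (SE; adjusted p = 0.115, limma). F13b, the carrier subunit of factor XIII, had a mean 0.46 ± 0.22 (SE) above untreated liver with AAV-hGRβ. Its AAV-hGRβ levels ran from 4.93 to 5.18 and its untreated levels from 4.31 to 4.92, so the groups came within 0.01 of each other.

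In the contact system, Klkb1 (plasma prekallikrein) read 2.89, 3.38 and 3.14 in untreated liver, 3.27, 2.85 and 2.51 with AAV-GFP, and 2.55, 2.30 and 2.17 with AAV-hGRβ. AAV-hGRβ arrays were below all untreated arrays, by -0.79 ± 0.23 (SE; adjusted p = 0.0931, limma), and overlapped AAV-GFP (-0.53 ± 0.23). On scan day 2 the difference from AAV-GFP was 0.04, with 1 array a group. Kng1 (kininogen), F11 and F12 differed from AAV-GFP by -0.32, -0.13 and -0.18.

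Plg (plasminogen), the precursor of the clot-dissolving enzyme, read 6.87, 6.70 and 6.62 in untreated liver, 7.19, 7.11 and 7.40 with AAV-GFP, and 6.75, 7.06 and 6.40 with AAV-hGRβ. AAV-GFP arrays were above all arrays of both other groups, by 0.50 ± 0.20 (SE; adjusted p = 0.490, limma) from untreated liver, and AAV-hGRβ differed from untreated liver by 0.01 ± 0.20. The other probe of Plg gave 0.45 and 0.09.

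Serpinf2 (antiplasmin, which inactivates plasmin) and Proc (protein C, the anticoagulant protease) were below both other groups with AAV-hGRβ. Serpinf2 read 7.19, 6.90 and 7.07 in untreated liver, 7.19, 6.98 and 7.15 with AAV-GFP, and 6.77, 6.87 and 6.43 with AAV-hGRβ (-0.42 ± 0.18 from AAV-GFP, SE; adjusted p = 0.409, limma). Proc read 7.96, 7.78 and 7.87, then 7.74, 8.03 and 7.76, then 7.66, 7.44 and 7.28 in the same order of groups (-0.41 ± 0.17 from untreated liver, adjusted p = 0.177). For both genes the AAV-hGRβ arrays were lower than every other array.

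The other inhibitors overlapped between groups. Serpinc1 (antithrombin) read 9.04, 8.57 and 8.61 in untreated liver, 8.68, 8.95 and 9.21 with AAV-GFP, and 8.65, 8.92 and 8.65 with AAV-hGRβ (-0.21 ± 0.21 from AAV-GFP, SE). Cpb2, a carboxypeptidase that slows clot lysis, read 7.43, 7.11 and 6.89, then 7.27, 7.17 and 7.57, then 7.18, 7.81 and 7.37, with a difference of 0.31 ± 0.23 from untreated liver that turned to -0.24 on scan day 2 and to -0.04 with arrays scaled to their medians. Serpind1 (heparin cofactor) and Pros1 (protein S) differed from AAV-GFP by -0.09 and -0.05.

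**Figure D3:**
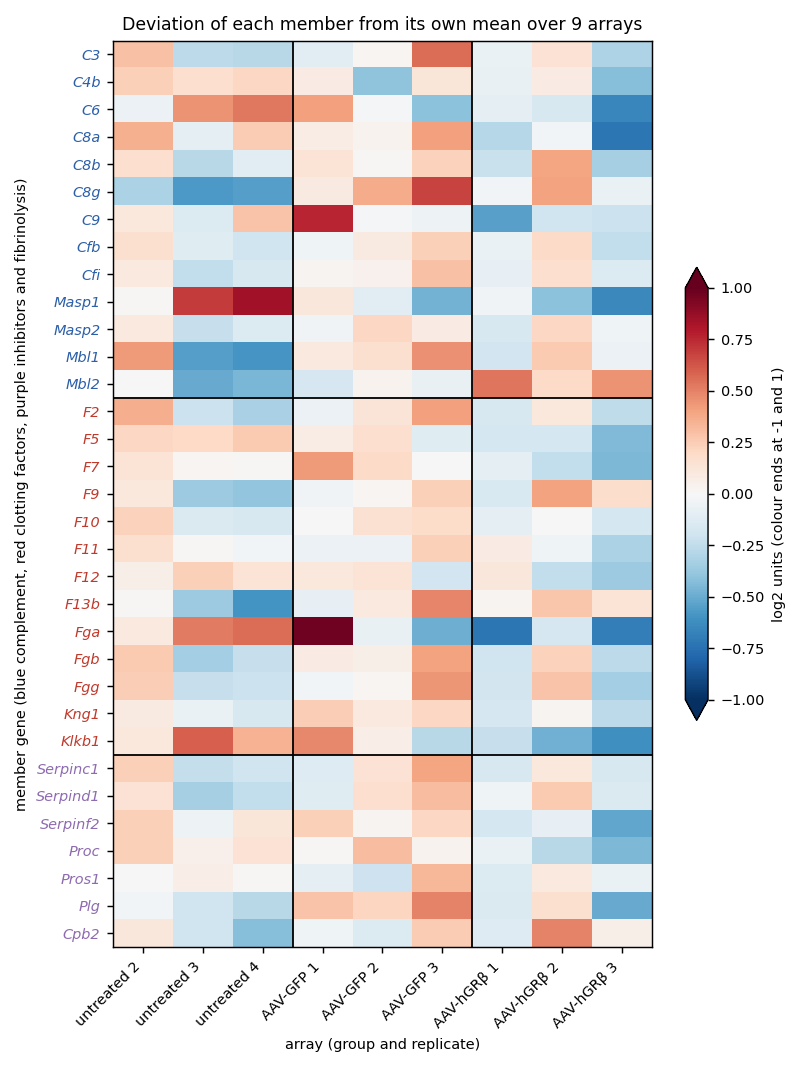
Deviation of each of the 33 members (rows, by role) from its own mean over the 9 arrays (columns, by group and replicate), in log2 units from -1 (blue) to 1 (red). C6, Masp1, Fga and Klkb1 are red on untreated replicates 3 and 4, where C8g, Mbl1 and Mbl2 are blue.

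Complement genes were compared with clotting factors and inhibitors by their medians. Against AAV-GFP, the 13 complement genes had a median difference of -0.21 and the 20 clotting factor and inhibitor genes one of -0.24, beside 0.03 for all genes tested. Lower means were found in 12 of 13 complement genes, 12 of 13 clotting factors and 6 of 7 inhibitors. The class medians thus differed by 0.03, a difference that was not tested. From untreated liver the medians of AAV-hGRβ were 0.01 and -0.06, beside 0.10 for all genes.

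By array, the median deviation of complement genes from their own means was 0.11, -0.23 and -0.13 in untreated replicates 2, 3 and 4. It was 0.08, 0.04 and 0.23 with AAV-GFP and -0.09, 0.17 and -0.24 with AAV-hGRβ. For clotting factors and inhibitors the medians were 0.14, -0.11 and -0.16, then 0.01, 0.10 and 0.24, then -0.15, 0.06 and -0.29. Both classes were high on AAV-GFP replicate 3 and low on AAV-hGRβ replicate 3, and arrays of every group overlapped. Complement minus the other class was 0.08, -0.06 and -0.01 with AAV-GFP, 0.06, 0.11 and 0.05 with AAV-hGRβ, and -0.03, -0.12 and 0.03 in untreated liver. In this gap the AAV-hGRβ and AAV-GFP arrays overlapped, and the AAV-hGRβ arrays were above the untreated ones.

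Hepatocyte markers, none of them a member, followed both classes by array. Their medians were 0.17, -0.16 and -0.12 in untreated liver, 0.02, 0.17 and 0.23 with AAV-GFP, and -0.17, 0.06 and -0.25 with AAV-hGRβ. All 15 had lower means with AAV-hGRβ than with AAV-GFP (median -0.25, none past the test), and against untreated liver Tat alone passed (-1.27, adjusted p = 0.0444, limma). Lower means were not particular to hepatocyte markers. All 12 endothelial markers also had lower means with AAV-hGRβ than with AAV-GFP (median -0.23, none past the test). Stellate markers were split, with 7 lower and 5 higher. In these bulk samples fewer hepatocytes and less RNA per hepatocyte cannot be told apart, and the part of hepatocyte share in the members' values was not tested.

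**Figure D4:**
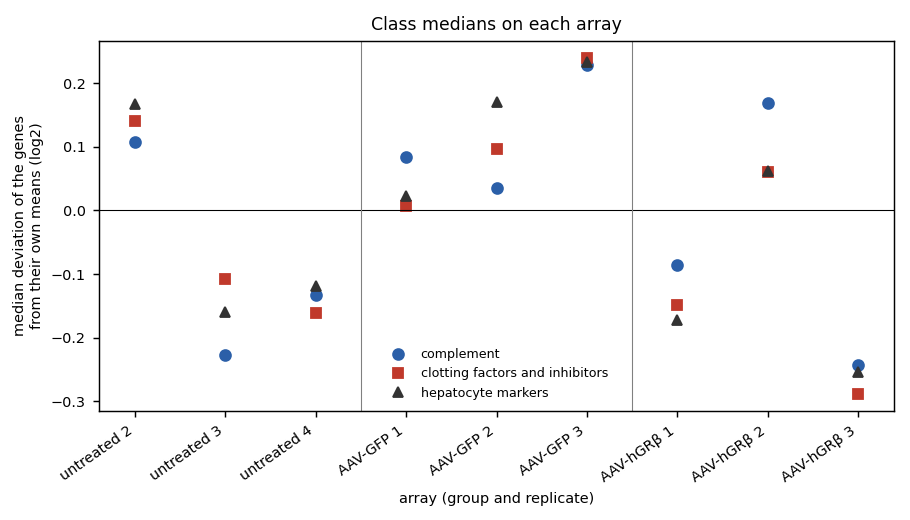
Median deviation (log2) of complement genes, of clotting factors and inhibitors, and of hepatocyte markers from their own means, on each of the 9 arrays. The 3 classes lie close together on each array, highest on AAV-GFP replicate 3 (0.23 and 0.24 for the member classes) and lowest on AAV-hGRβ replicate 3 (-0.24 and -0.29).

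By scan day, the medians of AAV-hGRβ against AAV-GFP were -0.04 for complement and -0.14 for clotting factors and inhibitors on day 1, and both -0.38 on day 2, where 1 array a group allows no test. All genes had a median of 0.11 on day 1 and -0.01 on day 2. The day 2 arrays of these groups also shared a slide.

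Against AAV-GFP both class medians stayed below 0 under every scaling run and changed sign under 1 background correction, normexp. With arrays scaled to their medians, all genes shifted to a median of -0.33 against AAV-GFP and the member classes to -0.57 and -0.60. Relative to all genes the members' median was -0.25 there, as in the values above, because such scaling shifts all genes of an array alike. Where it could move, this gap was -0.08 under quantile and -0.12 under cyclic loess normalization. It was 0.57 under normexp background correction and -0.22 under normexp with bright local backgrounds replaced. The class medians were -0.10 and -0.09 under quantile normalization, and -0.05 and -0.08 with no scaling. Background correction by normexp turned both to 0.54 and 0.52, with 0 of 33 members below 0, turning all 30 negative differences, but with bright local backgrounds replaced it gave -0.20 and -0.24.

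**Figure D5:**
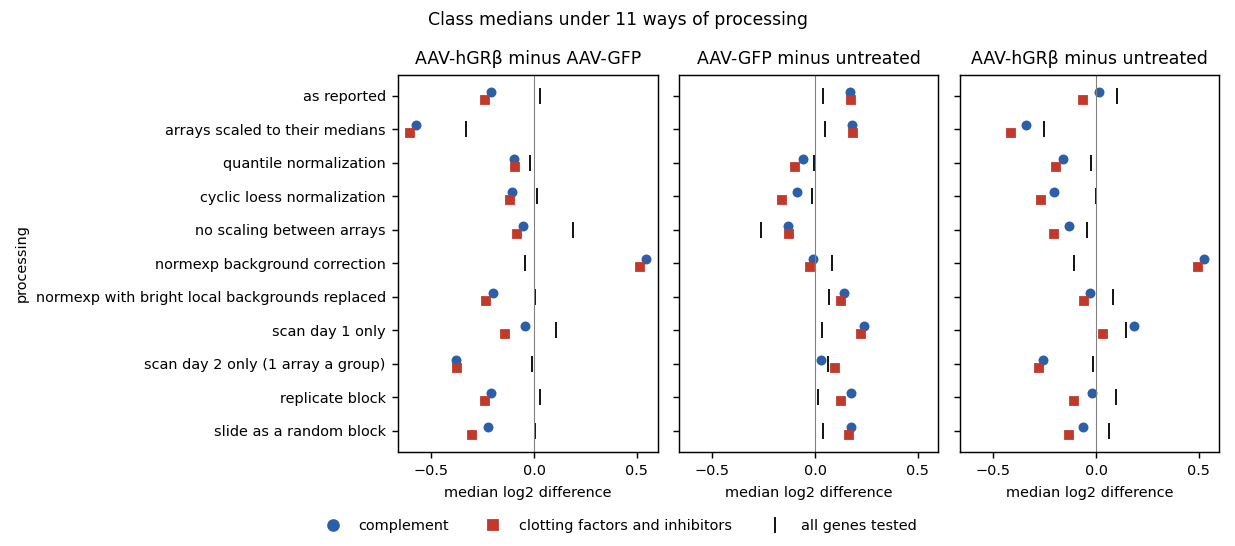
Median log2 difference of complement genes (circles), of clotting factors and inhibitors (squares) and of all genes tested (ticks) in the 3 comparisons (panels), under 11 ways of processing (rows). The circle and square lie near each other in most rows. They are furthest apart on scan day 1 for AAV-hGRβ against untreated liver (0.19 and 0.03). Their place relative to 0 changes, most under normexp background correction (0.54 and 0.52 in the left panel).

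Between AAV-GFP and untreated liver, 23 of 33 members had higher means with AAV-GFP, with a median of 0.17. None passed the test, beside 0% of all genes. At an unadjusted p under 0.05 there were 3 members (C8g and Plg higher, Masp1 lower), or 9.09%, beside 9.78% of all genes. Upward separation was seen for 3 members (C8g, Kng1 and Plg), beside 5.74% of all genes, and downward separation for 2 (C4b and F5), beside 8.99%. The sign of the median was not stable: 25 of 33 members were below 0 under quantile and 25 under cyclic loess normalization, 29 under no scaling and 20 under normexp.

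Between AAV-hGRβ and untreated liver, 14 members were higher and 19 lower, with a median of -0.04. None passed the test, beside 3.25% of all genes (416 higher and 127 lower, or 329 and 257 with arrays scaled to their medians). At an unadjusted p under 0.05 there were 8 members, or 24.2%, beside 25.6% of all genes. These were Mbl2 and C8g, which were higher, and C8a, Masp1, F5, Fga, Klkb1 and Proc, which were lower. Upward separation was seen for C8g, Mbl2 and F13b, beside 15.1% of all genes. Downward separation was seen for 10 members, C4b, C6, C9, Masp1, F5, F7, Fga, Klkb1, Serpinf2 and Proc, beside 14.2% of all genes. Both this comparison and the one with AAV-GFP share the AAV-hGRβ arrays.

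Leaving out untreated replicate 2 brought Mbl2 (0.87, adjusted p = 0.0325, limma) and Masp1 (-1.14, adjusted p = 0.0358) past the threshold against untreated liver, which is 2 of 33 members beside 11.7% of all genes in that fit, and that was the only array whose removal called a member. With the scan day as a block Mbl2 was the 1 member of 33 that passed, beside 7.28% of all genes. Under normexp with bright local backgrounds replaced it was again the 1 member (0.72, adjusted p = 0.0437), beside 5.27% of all genes. Over the alternatives that allowed a test its adjusted p in that comparison ran from 0.00492 to 0.548, and its difference was above 0 in each of them.

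The brightest member spots varied least before scaling. C3, F2, Fgb, Fgg and Serpinc1 had mean intensities above 200000, and their unscaled log2 intensities ranged over only 0.24 to 0.36 across the 9 arrays. After scaling they ranged over 0.63 to 0.87, beside a range of 0.91 in the 75th percentile itself. Over all members, 16 of 33 had a smaller SD unscaled. No member spot was flagged as saturated, and the brightest reached 54.6% to 66.5% of the saturation value of its array. Of the 8 members with mean intensities below 10000, 7 varied more unscaled than scaled.

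Several probes measured 9 of the members, and 8 of these had at least 2 past the filter. For C3, Kng1 and Serpinc1 the dimmer probe gave the more negative difference from AAV-GFP (-0.50, -0.48 and -0.55, beside -0.23, -0.32 and -0.21). Against untreated liver these dimmer probes gave -0.64, -0.60 and -0.56, beside 0.01, -0.09 and 0.00. The reverse held for Plg (dimmer -0.37, brighter -0.49), Pros1 (0.04 and -0.05), Masp1 (dimmer 0.12 and -0.04, brightest -0.21) and Masp2 (dimmer -0.06 and -0.04, brightest -0.08), while the probes of F9 gave 0.06 (dimmer) and 0.07. The probes of F9, Masp2 and Plg had the same sign in all 3 comparisons, and those of Masp1 in none.

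Other genes of both systems were read from lists chosen with earlier results known. Of 42 other complement genes, 34 were tested and none passed against AAV-GFP (14 higher and 20 lower, median -0.05) or against untreated liver (21 and 13, median 0.22). The smallest p values against untreated liver were those of Cfd (factor D, -2.59 ± 0.65, SE; adjusted p = 0.0659, limma) and Cfp (properdin, 1.21 ± 0.32, adjusted p = 0.0737). Subunits of C1q, which macrophages make, differed by 0.85, 0.83 and 0.87 (C1qa, C1qb and C1qc) from untreated liver without passing, are named after their values were seen, and are also in the Kupffer cell list below.

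Of 40 other coagulation genes, 33 were tested and 2 rose against AAV-GFP, none fell, beside 0.915% of all genes called. Nqo1, a quinone reductase that can reduce vitamin K, rose by 1.503 ± 0.251 (SE; adjusted p = 0.0333, limma) and Serpina5, the protein C inhibitor, by 2.05 ± 0.36 (adjusted p = 0.0422). Against untreated liver 3 rose, beside 3.25% of all genes called: Nqo1 (1.95), Serpina5 (2.504) and F13a1, the catalytic subunit of factor XIII (1.83 ± 0.39, adjusted p = 0.0449). Serpina5 was well above background on 2 of 3 arrays in each control group and F13a1 on 1 of 3 untreated arrays, so these differences rest partly on signals near background. F3, tissue factor, gave -0.87 ± 0.35 (SE) against untreated liver (adjusted p = 0.165, limma).

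Among 26 transcription factors of hepatocytes, 22 had lower means with AAV-hGRβ than with AAV-GFP (median -0.14), and 22 than in untreated liver (median -0.41). With AAV-GFP, 19 of the 26 were likewise below untreated liver (median -0.31), none past the test. Past the test, 1 of the 26 rose with AAV-hGRβ against untreated liver and none fell, beside 3.25% of all genes, and none passed against AAV-GFP. Hnf4a, which acts on many liver genes, gave -0.60 ± 0.19 (SE; adjusted p = 0.112, limma) against untreated liver. Of 28 acute phase and cytokine genes, Tnf rose in both comparisons, and its signal was not well above background on any control array, while no gene of the list fell. Interferon-stimulated genes gave the contrast to the members: 12 of 20 rose against AAV-GFP (beside 0.915% of all genes called) and 16 against untreated liver (beside 3.25%), with medians of 1.99 and 2.31.

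Markers of immune cells moved with AAV-hGRβ. Of 13 T and NK cell markers tested, 4 rose against AAV-GFP, and their summed level (log2) was 1.36 to 1.56 in untreated liver, 1.48 to 1.58 with AAV-GFP and 2.48 to 3.64 with AAV-hGRβ. Kupffer cell and macrophage markers ran at 7.12 to 7.74, 7.40 to 8.50 and 8.47 to 9.07, with 1 of 15 called against AAV-GFP and 4 against untreated liver. Neutrophil and monocyte markers ran at 3.24 to 4.06, 3.78 to 4.21 and 5.81 to 6.54, with 1 and 2 of 8 called. Over all genes, 0.915% were called against AAV-GFP and 3.25% against untreated liver. Cd8a was not well above background on any control array. No marker of endothelial, stellate, biliary, B, platelet or red cells passed the test in either comparison, out of 12, 12, 6, 3, 8 and 3 tested. The part of these cells in the members' values was not tested.

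Promoter windows, which run on to 50 bases after the start, were found for 26 of the 33 members. Without an entry were C4b, Cfb, Cfi, Masp1, Kng1, Proc and Plg. The C/EBP letters TTGCNNAA occurred on either strand in 9 of 26 (34.6%), beside 12.2% of 27025 genes, and the stricter TTGCGNAA, which overlaps it, in C3 and Serpinc1 (7.69%, beside 0.918%). TTCNNNGAA occurred in 6 (23.1%, beside 9.55%). The receptor hexamer AGAACA occurred in 10 (38.5%, beside 21.3%), among them Mbl1 at position -148 and Mbl2 at position 14, after the start and so not in the sequence above.

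The interferon response core AAANNGAAA occurred in 0 of 26 members, beside 12.1% of genes. The NF-kappaB letters GGGNNTTTC occurred in Cpb2 alone (3.85%, beside 5.06%), and the HNF4 letters CAAAGTCCA and AGGTCAAAG in none (beside 0.555% and 0.488%). The HNF1 letters GTTAAT were planned but not searched, so they are neither counted here nor marked in the sequences above. A match describes letters and shows no binding, and the members' promoters were not compared with those of other liver genes.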

How the data were processed

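Agilent scanner files of 9 liver arrays were used, 3 a group. The authors' deposited intensity values are processed signals that, per the submitters' processing notes and the file headers, Agilent Feature Extraction 9.5 wrote, already background-subtracted; the deposited series table holds the same intensities (largest difference 0; column medians 34.2 to 75.6, linear and uncentred). Of 45018 spots per array, 43379 were gene spots on 41174 probes. Control spots and outlier-flagged spots were left out, spots of a probe were averaged, and log2 intensities were set relative to each array's 75th percentile. A probe was kept if every array of 1 or more groups had it well above background (24277 probes), and the brightest kept probe stood for its gene. Names came from the RefSeq table (GRCm38.p6, names only): the accession named 23082 probes, the symbol 6584 and an older symbol 3073, while the array design alone named 8435. Probe coordinates are those of the files, on mm7; exon or UTR is not stated.

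limma 3.58.1 (R 4.3.3; lmFit and eBayes, 6 residual degrees of freedom) was fitted to all 9 arrays and 16722 genes, with Benjamini-Hochberg adjustment within each comparison and a threshold of 0.05. It was tested on simulated data whose noise was independent between arrays, with no slide or scan day effect. That test does not show how the fit performs where slide or day matters. The number of arrays limits the precision. Values on every array are given for the 3 members with the largest difference in each role in both comparisons of AAV-hGRβ and for 5 central members, C3, F2, Fgb, Plg and Serpinc1; other genes are named from lists, up to 4 that passed and 2 that did not. Members and lists were chosen with earlier results of these data known. Alternatives were 19 planned and 2 added after seeing the data (no scaling, and leaving out both arrays of the shared slide). Some genes of the lists are not reported here.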

Additional observations from a re-analysis of the deposited data

How the results depend on the processing

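The medians of complement genes and of clotting factors and inhibitors, and the count of members called, depended on scaling, background correction, scan day and array weights, and the cause was not tested. For AAV-hGRβ against AAV-GFP the complement median (-0.21) became -0.57 with arrays scaled to their medians, 0.54 under normexp, -0.38 with slide as a fixed block and on scan day 2, and -0.044 on scan day 1 and without both arrays of the shared slide; that of the others (-0.24) became -0.60, 0.52 under normexp and -0.083 without scaling. For AAV-GFP against untreated liver the medians (0.17 and 0.17) became -0.057 and -0.10 under quantile normalization, -0.086 and -0.16 under cyclic loess, -0.0083 and -0.026 under normexp, and -0.13 and -0.13 without scaling. For AAV-hGRβ against untreated liver the complement median (0.01) became -0.34 with median scaling, -0.16 under quantile normalization, -0.20 under cyclic loess, 0.53 under normexp, 0.19 on scan day 1 and -0.26 on day 2; that of the others (-0.06) became -0.42 with median scaling, -0.27 under cyclic loess, 0.50 under normexp and -0.28 on day 2. Array weights called 4, 14 and 11 of 33 members in the 3 comparisons, beside 2393, 7171 and 6783 genes, or 14.3%, 42.9% and 40.6% of all genes. Against untreated liver 7 of 33 members were called on scan day 1 alone (2 arrays against 2), beside 28.4% of all genes, 1 with scan day as a block, beside 7.28%, and 1 under normexp with bright local backgrounds replaced, beside 5.27%.

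Leaving out each array in turn gave medians of -0.35 to -0.08 and -0.36 to -0.16 against AAV-GFP, 0.10 to 0.26 and 0.08 to 0.28 for AAV-GFP against untreated liver, and -0.11 to 0.14 and -0.16 to 0.02 for AAV-hGRβ against untreated liver, with 0 to 2 members called in the last and 0 in the others. Under normexp these differences from AAV-GFP reversed: C9 0.12, C8a 0.26, Fga 0.090, Klkb1 0.0022, F7 0.16, Plg 0.28, Serpinf2 0.34, Proc 0.38, C3 0.54, F2 0.52, Fgb 0.51 and Serpinc1 0.54. From untreated liver, F5 (0.033), Proc (0.19) and Serpinf2 (0.20) reversed under normexp, as did C4b (0.22), C8a (0.054), C9 (0.12) and F7 (0.13), among 15 of 19 negative members. Klkb1 gave 0.044 against AAV-GFP with slide as a fixed block and on day 2, Masp1 0.0061 with the probe of median difference, and Cpb2 -0.041 with median scaling and -0.24 on day 2.

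Replicate numbers did not pair the arrays (r of same-numbered arrays -0.32 to 0.24). With the replicate block the fit called 2, 0 and 1 genes and 0 members, with medians of -0.21 and -0.24 against AAV-GFP. Genes called ran from 0 to 2393 against AAV-GFP, beside 153, and from 1 (replicate block) to 6783 for AAV-hGRβ against untreated liver, beside 543. Against AAV-GFP, 0 were called with slide as a fixed block, which could be fitted only for that comparison. Without both arrays of the shared slide 0 were called as well, and scan day 1 alone called 3. With slide as a random block (correlation 0.46), 74 genes were called against AAV-GFP and 59 for AAV-hGRβ against untreated liver, with 0 members in each. Scan day 2 held 1 array a group and gave values with no test. Of all 912 values recomputed, 227 class medians or counts of members called were kept and 34 moved. A median was kept if it moved by less than the SD within groups of the array medians, and a count only if it was unchanged. Of the single-gene values, 613 kept direction and side of the threshold, 18 newly passed it and 20 reversed. Signal near background limits the dimmest probes.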
